A study of Mus musculus with 4 samples.

Results

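Runs of closely spaced Sp6 intervals were described in mouse dental mesenchyme, where several intervals were called within short stretches of chromatin. An interval is a region with a local excess of sequenced fragments in a chromatin immunoprecipitation library. A run was defined as 3 or more mesenchyme Sp6 intervals on a chromosome with at most 10000 bp between each interval and its neighbour, and runs that touched an interval of either input library were left out. Members were chosen by the positions of the mesenchyme Sp6 intervals and of the input intervals, so their number and spacing are no result. The rule was met by 250 runs, which held 855 of the 11436 mesenchyme Sp6 intervals (7.48%). A further 1996 intervals lay in pairs and 8579 stood singly at the same distance limit, and 6 lay in the 1 run that touched an input interval.

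Sp6, or epiprofin, belongs to the SP/KLF zinc-finger proteins, and mice that lack it form abnormal teeth. Such factors bind GC-rich and CACC-type sequences, and groups of neighbouring binding sites are a common feature of the regulatory DNA around developmental genes. Dental mesenchyme forms the odontoblasts, which secrete dentin, and the pulp, while dental epithelium forms the ameloblasts, which secrete enamel.

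The 4 libraries were a Sp6 library and an input library (no antibody) from dental mesenchyme, and a Sp6 library and an input library from dental epithelium. Both tissues came from 30 molars of C57BL/6 mice at postnatal day 1, the labels name no treatment or mutation, and the Sp6 antibody was made in the submitters' laboratory. Each group had 1 library of pooled tissue, so no replicate error was known, no test between groups was possible, and sequencing depth was not given. The mesenchyme input had 24 intervals and the epithelium input had 17, and the epithelium Sp6 list had 3811. No expression was measured, so the labelled tissues could not be checked against marker genes.

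The start regions of 4 genes with a run interval over the listed gene start are shown because they span the kinds of start found in the runs, from a CpG island promoter (Msx2 and Fos) to starts without a CpG island (Mmp20 and Col1a2). Each window holds 250 bases before and 50 bases after the RefSeq gene start (build GRCm38.p6, read 5′ to 3′ on the gene's strand). Capitals mark matches, on either strand, to any of 4 motifs. The first is the box of SP factors, spelled GGGCGG and called the GC box here. Another is the box of KLF factors, spelled CCACCC and called the CACC box here. The others are the core of many homeobox proteins, spelled TAATTA, and the pattern TGANTCA. N is any base, so this pattern takes in the core bound by AP-1 proteins and other sequences too. The RefSeq start may differ from the start used in the deposited tables.
Msx2 (chromosome 13, minus strand): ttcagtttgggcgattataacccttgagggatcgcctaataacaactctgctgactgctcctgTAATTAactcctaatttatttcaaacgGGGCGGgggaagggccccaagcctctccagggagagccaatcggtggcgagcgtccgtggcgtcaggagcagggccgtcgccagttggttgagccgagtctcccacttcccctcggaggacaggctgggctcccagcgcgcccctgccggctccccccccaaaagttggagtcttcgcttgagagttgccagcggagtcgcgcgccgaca
Fos (chromosome 12, plus strand): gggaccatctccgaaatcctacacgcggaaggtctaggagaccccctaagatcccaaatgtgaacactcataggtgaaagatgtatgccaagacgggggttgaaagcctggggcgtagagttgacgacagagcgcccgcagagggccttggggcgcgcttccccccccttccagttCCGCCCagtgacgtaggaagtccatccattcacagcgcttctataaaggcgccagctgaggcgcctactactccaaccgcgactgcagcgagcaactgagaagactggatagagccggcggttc
Mmp20 (chromosome 9, plus strand): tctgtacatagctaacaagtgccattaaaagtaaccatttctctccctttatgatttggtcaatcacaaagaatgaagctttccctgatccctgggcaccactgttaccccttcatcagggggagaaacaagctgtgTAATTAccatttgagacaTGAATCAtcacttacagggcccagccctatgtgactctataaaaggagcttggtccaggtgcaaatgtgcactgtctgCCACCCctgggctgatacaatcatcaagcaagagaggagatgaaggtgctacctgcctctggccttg
Col1a2 (chromosome 6, plus strand): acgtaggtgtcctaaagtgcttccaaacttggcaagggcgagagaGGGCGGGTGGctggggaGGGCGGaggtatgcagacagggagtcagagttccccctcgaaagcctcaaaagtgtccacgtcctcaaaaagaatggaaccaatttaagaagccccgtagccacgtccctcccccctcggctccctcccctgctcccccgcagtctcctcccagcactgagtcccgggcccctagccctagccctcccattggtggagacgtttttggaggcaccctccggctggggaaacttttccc
GC boxes numbered 1 in Msx2, 1 in Fos and 2 in Col1a2, and none was found in Mmp20. Mmp20 and Col1a2 had 1 CACC box each, Msx2 and Mmp20 had 1 TAATTA each, and Mmp20 had 1 match to TGANTCA, with A at N. In Col1a2 the CACC box, read on the opposite strand, overlaps a GC box, and both are in capitals as 1 stretch. Of 74 gene names with a run interval centred within 1 kb of their start, 65 matched a RefSeq gene and 48 had a start window in the table used. GGGCGG was present in 26 of these 48 windows (54.2%, Wilson 95% interval 40.3 to 67.4%). It was present in 68% of 456 windows of genes with such an interval outside runs and in 35.9% of all 27025 windows. The median GC content was 60% in the windows at runs, 60% in those outside runs and 52.7% in all windows. The part of base composition in these shares was not tested. CCACCC was present in 35.4% of windows at runs, 35.3% outside runs and 30.9% of all windows. TAATTA was found in 2 and TGANTCA in 3 of the 48 windows, against 5.31% and 7.93% of all windows. These matches describe the letters of the windows and do not locate binding, and Wilson intervals here and below cover counting error only.

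Most runs were short, with 186 runs of 3 intervals, 42 of 4, 15 of 5 and 7 of 6 or more. The span of a run had a median of 11.4 kb (interquartile range 7.8 to 15.1 kb), with the shortest at Slc14a2 (2225 bp) and the longest at Dlx5 (44958 bp). The 605 gaps inside runs had a median of 3144 bp (interquartile range 1016 to 6107 bp), and 150 gaps (24.8%) were under 1000 bp. The smallest gap was 1 bp and 29 gaps were under 100 bp, so neighbouring intervals need not be separate sites of occupancy. Intervals covered a median of 22.4% of the span of their run and at most 95.1%, at Ppp1r12b, a myosin phosphatase subunit gene. The gaps and spans are set in part by the rule and are given as a description.

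**Figure D1:**
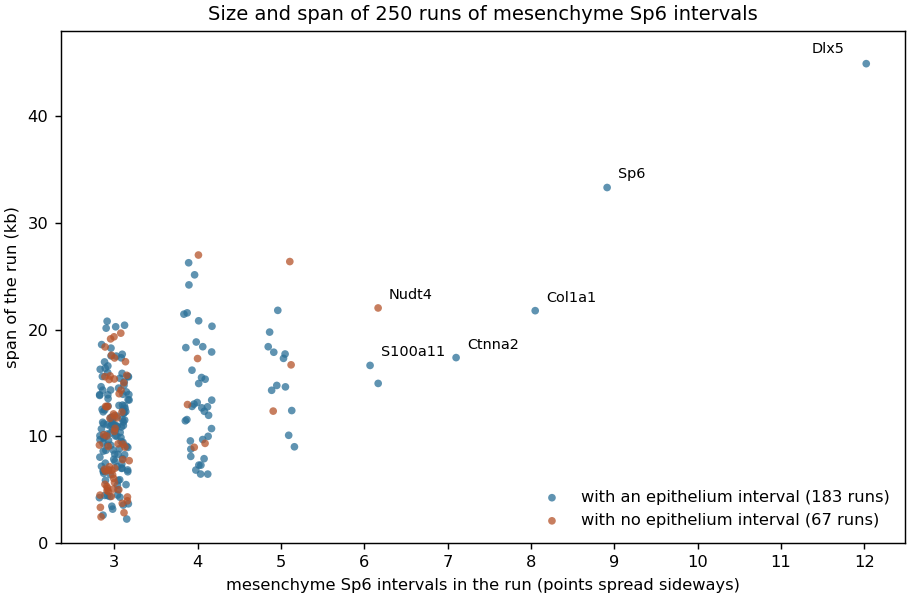
Span of each of the 250 runs in kb (vertical axis) against its number of mesenchyme Sp6 intervals (horizontal axis, points spread sideways), with runs coloured by whether any of their intervals overlapped an epithelium Sp6 interval. Runs at Dlx5, Sp6, Col1a1 and Ctnna2 had the most intervals, and 183 of the 250 runs held an interval shared with epithelium.

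The distance limit lay inside a continuous range of gaps. The widest gap inside a run was 9958 bp, at Mbnl1, whose run had 3 intervals and a highest peak value of 133. The narrowest gap that kept 3 intervals from forming a run was 10046 bp, at Elmo1, with a highest peak value of 36. The peak value, the fragment density that the authors give for an interval's highest bin, was deposited for the intervals with a listed gene (626 of the 855 in runs), called annotated here.

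A homeobox gene, the Sp6 gene itself and a collagen gene held the 3 runs with the most intervals. Dlx5, a homeobox gene of jaw and tooth patterning, lay in the run with the most intervals, 12 over 45 kb together with Dlx6as, the antisense transcript of its neighbour (chr6:6794478-6839435). Its 10 annotated peak values were 18, 65, 19, 21, 60, 28, 23, 20, 39 and 50 along the chromosome. The highest, 65, lay 3310 bp downstream of the Dlx6as start on 2 CpG islands, which are stretches rich in CG that many promoters hold, and the values of 60 and 50 flanked Dlx5 on either side. Only the last 2 intervals of the run overlapped an epithelium interval. The interval over the Dlx5 start, 124 bp upstream, had a peak value of 39 in mesenchyme and 19 in epithelium, and the interval 7068 bp upstream had 50 in mesenchyme and 33 in epithelium. The 10 other intervals, including the strongest of the annotated ones, had none in epithelium.

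The Sp6 gene itself carried 9 intervals over 33.3 kb (chr11:96858456-96891790), in a run that reached the neighbouring genes Scrn2 and Lrrc46. The 7 annotated peak values were 22, 80, 149, 24, 23, 21 and 29. The values of 80 and 149 belonged to adjacent intervals 5283 and 2115 bp upstream of the start, and all other values were under 30. These 2 intervals were also the ones found in epithelium, with peak values of 33 and 56. The last interval of the run was the widest of all run intervals, 4622 bp, with a peak value of 29.

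Col1a1, which encodes the alpha-1 chain of type I collagen, the main fibrous protein of dentin and bone, held 8 intervals spread along the whole gene (chr11:94795542-94817318, 21.8 kb). Their peak values were 33, 27, 20, 31, 14, 16, 15 and 17 from 1648 bp upstream of the start to 17893 bp past it. The values were low and even, and none of the 8 intervals lay on a CpG island. The upstream interval overlapped an epithelium interval (33 in mesenchyme, 16 in epithelium) and the 7 others had none. Col1a2, which encodes the partner chain, had 3 intervals over 2.59 kb at its start (chr6:4455420-4458007) with peak values of 21, 24 and 117. The strongest, 1887 bp into the gene, was the shared interval, with 42 in epithelium.

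Ctnna2, which encodes alpha-N-catenin, had 7 intervals over 17.4 kb inside the gene, 965582 to 982350 bp from its start (chr6:76946865-76964237). Its peak values were 62, 26, 394, 18, 32, 44 and 37, so a single interval stood 11.4-fold above the median of the others. That interval had a peak value of 150 in epithelium, and its 6 neighbours had no epithelium interval. Msx2, a homeobox gene expressed in both dental tissues, had 5 intervals over 17.7 kb (chr13:53551740-53569449), covering 69.2% of the span. The peak values were 47, 41, 75, 35 and 136, and the intervals of 75 (8853 bp from the start) and 136 (203 bp upstream) had 20 and 37 in epithelium.

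**Figure D2:**
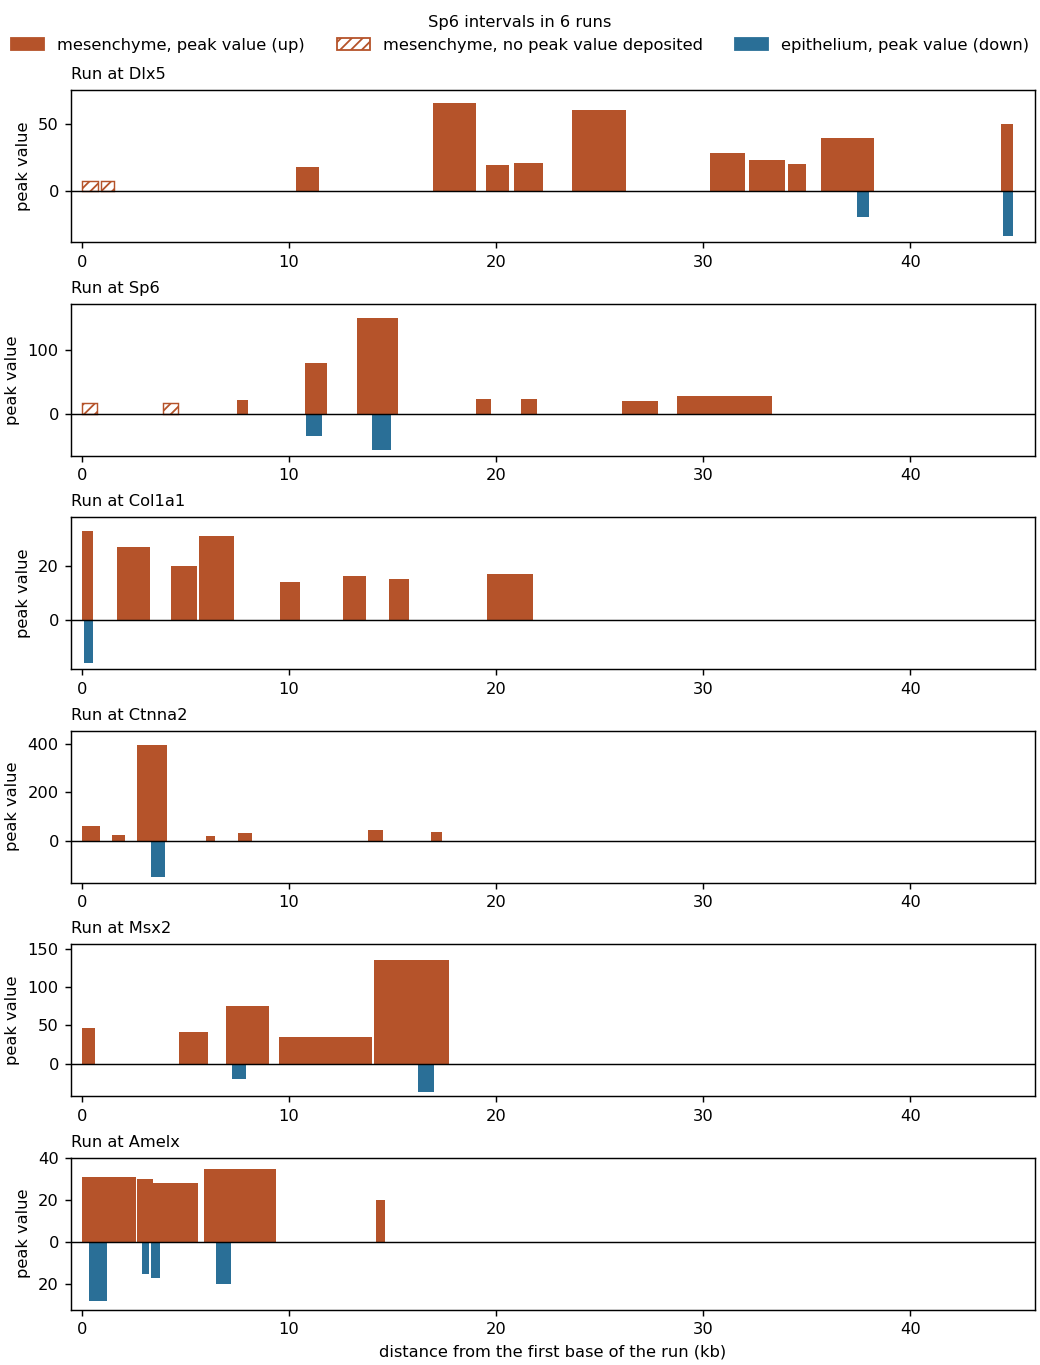
Sp6 intervals along 6 runs, with distance from the run's first base in kb on the horizontal axis and the deposited peak value on the vertical axis, mesenchyme upward and epithelium downward (scales differ between panels, hatched boxes had no peak value and have no height to read). Ctnna2 had 1 dominant interval with a peak value of 394, Col1a1 had 8 intervals between 14 and 33, and Amelx had epithelium intervals under 4 of its 5 mesenchyme intervals.

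Ptch1, the hedgehog receptor and a target of the pathway, had 6 intervals (chr13:63655501-63670450) with peak values of 18, 22, 18, 14, 71 and 27. The interval 884 bp upstream of its start, with 71 in mesenchyme and 22 in epithelium, was the shared one. S100a11, a calcium-binding protein gene, had 6 intervals (chr3:93310334-93326972) with annotated peak values between 34 and 60, and 4 of the 6 were found in epithelium. Bambi, a decoy receptor for BMP and TGF-beta, had 5 intervals (chr18:3496441-3513741) with annotated peak values of 28, 28, 141 and 53. The strongest of them, inside the gene, had 64 in epithelium. Nudt4, which encodes a phosphohydrolase of inositol pyrophosphates, had 6 intervals that reached into Ube2n (chr10:95004311-95026342). Peak values at Nudt4 lay between 16 and 29, and no interval overlapped an epithelium interval.

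Sema5a, a semaphorin gene of axon guidance, held 2 runs deep inside the gene. The run of 5 intervals (chr15:32413495-32435302) had peak values of 41, 43, 29, 72 and 62, of which those of 43 and 62 were shared. The run of 3 (chr15:32372422-32389388) had 154, 54 and 84, and the shared interval of 154 had 96 in epithelium. Satb1, a chromatin organiser, was the gene with the most runs, 3 runs of 3 intervals each, with highest values of 50, 168 and 77. In all, 7 genes were listed at 2 or more runs.

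Strong single intervals also occurred in runs. After Ctnna2, the highest peak value in a run was 324, at Cadps2, a gene of dense-core vesicle release (chr6:23235752-23245178). All 3 intervals of the Cadps2 run were strong and shared, with peak values of 324, 148 and 137 in mesenchyme and 82, 106 and 49 in epithelium. The epithelium order differed, with the middle interval the highest. The runs at Ptk7, a receptor of planar cell polarity (210, 20 and 46), at Pla2r1, a phospholipase A2 receptor (184, 27 and 30), and at Kctd1 (190, 39 and 17) had 1 high interval each. Near Ppard, a nuclear receptor gene, an interval 7267 bp upstream of the start had 210 in mesenchyme and 82 in epithelium, beside values of 40 and 21. A gene listed as BC049816 had 52, 286 and 36. In each of these 5 runs the strongest interval was a shared one.

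The strongest interval of a run was the one most often found in epithelium. In the 165 runs with a peak value for every interval, 103 strongest intervals (62.4%, 54.8 to 69.5%) overlapped an epithelium interval, compared with 41 of 165 next strongest (24.8%, 18.9 to 32%) and 21 of 222 others (9.46%, 6.27 to 14%). Median peak values of the 3 ranks were 66, 38 and 23. Over all annotated mesenchyme intervals the share also rose with the peak value, from 5.88% at values up to 25 to 68.9% at 52 or more. Whether rank within a run adds to this was not tested. In 109 of the 165 fully annotated runs some intervals were shared and others were not. In 98 of these 109 (89.9%) the strongest was among the shared. The strongest interval was a median of 1.89 times the median of the others (interquartile range 1.45 to 2.93) and at least 3 times in 40 runs. Ranking uses the mesenchyme values alone, and intervals of a run share their library, so the shares are a description.

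**Figure D3:**
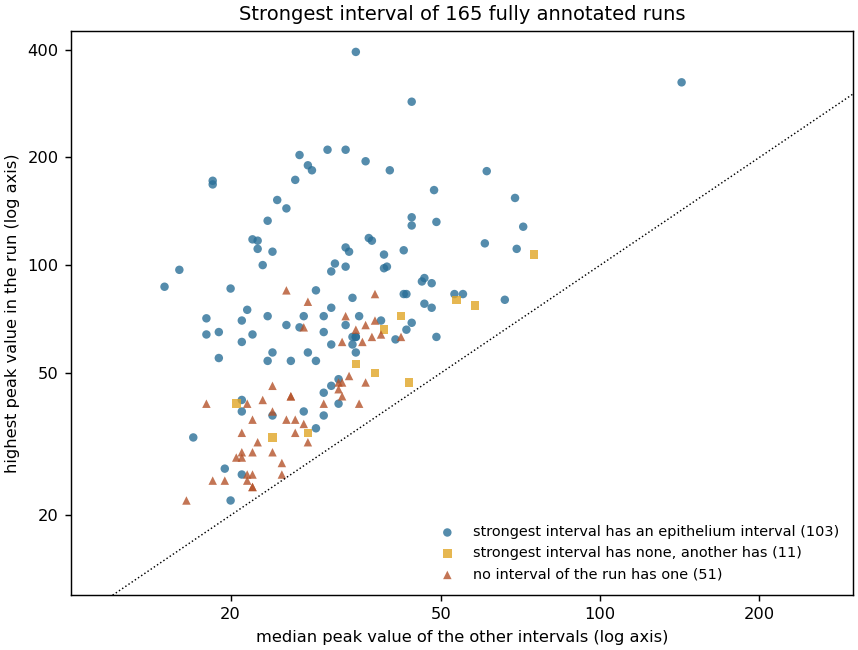
Highest peak value of each of the 165 fully annotated runs (vertical log axis) against the median peak value of its other intervals (horizontal log axis), with the dotted line marking equal values. The strongest interval had an epithelium counterpart in 103 runs, another interval did in 11, and 51 runs had no counterpart.

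As units, 183 of the 250 runs (73.2%, 67.4 to 78.3%) held at least 1 interval that overlapped an epithelium interval. In 107 runs exactly 1 interval was shared, in 76 runs 2 or more were, and in 67 runs none was. A longer run has more chances to hold a shared interval. The share was 128 of 186 runs of 3 intervals (68.8%, 61.8 to 75%), 37 of 42 runs of 4 (88.1%, 75 to 94.8%) and 18 of 22 runs of 5 or more (81.8%, 61.5 to 92.7%). All intervals were shared in 8 runs of 3 intervals, at Slc4a4, Robo1, Cadps2, Tjp1, Plxna4, Ptprr, Iqgap2 and a gene listed as 9430067K14Rik.

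Interval by interval, runs were close to the rest of the mesenchyme list. Of the 855 intervals in runs 276 (32.3%, 29.2 to 35.5%) overlapped an epithelium interval, against 31.6% of intervals in pairs, 28.3% of single ones, 29.0% of all outside runs and 29.2% of all mesenchyme intervals. Runs held 277 epithelium intervals, 7.27% of the epithelium list, which is close to the 7.48% of mesenchyme intervals they hold. Within 4 classes of the mesenchyme peak value, the share in runs and in single intervals was 2.97% (1.37 to 6.33%) and 6.28% in the lowest class (peak value up to 25), and 15% and 12.6% in the next. It was 26% and 28.2% in the following class, and 75.1% (68.2 to 81%) and 67.1% (64.5 to 69.7%) in the highest, at peak values of 52 or more. The share differed more between these classes than between runs and single intervals, and the difference between runs and single intervals was not tested.

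**Figure D4:**
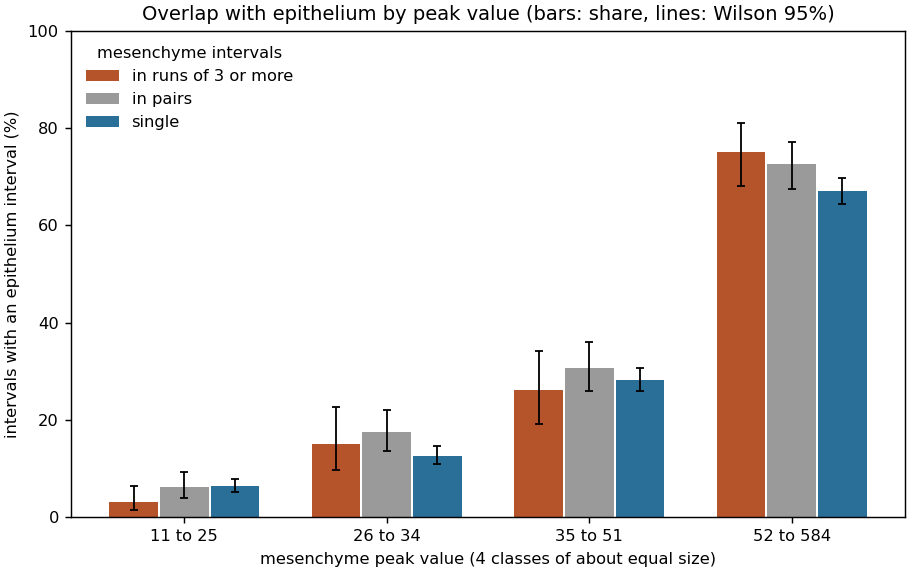
Share of annotated mesenchyme intervals that overlapped an epithelium interval (vertical axis, percent, with Wilson 95% lines) by class of the mesenchyme peak value (horizontal axis) for intervals in runs, in pairs and single. In runs, in pairs and among single intervals alike, the share was lowest in the leftmost class and highest in the rightmost, where it was 75.1% in runs and 67.1% in single intervals.

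Median peak values did not set runs apart, at 34 in runs (interquartile range 23 to 56) and 34 outside runs (25 to 51). Intervals in runs had a median length of 691 bp, against 639 bp in pairs and 618 bp for single intervals. Among annotated shared intervals the median peak value in runs was 65 in mesenchyme and 30 in epithelium over 188 intervals. The median log2 ratio of mesenchyme to epithelium was 1.07 in runs and 0.96 outside them. The scaling between libraries is not stated, so this ratio describes deposited values and not a difference in binding.

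The epithelium list held few runs of its own. By the same rule it had 19 runs with 59 intervals (1.55% of its 3811), the largest of 4. Of these 19 runs 15 (78.9%) overlapped a mesenchyme run, and the 15 mesenchyme runs they met were 6% of the 250. Over the whole lists, 3340 mesenchyme intervals overlapped an epithelium interval, beside 3811 epithelium intervals in all. With so much overlap between the lists, an epithelium run will often meet a mesenchyme run by the same rule. The share of 78.9% is thus not read as a trait of runs. Epithelium runs of 4 intervals lay at S100a11 (chr3:93310544-93325085) and at Amelx (chrX:165616617-165623472). The epithelium list is shorter than the mesenchyme list of 11436 intervals, and the part of list length in the number of runs was not tested.

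Runs lay nearer to gene starts and on CpG islands more often than other mesenchyme intervals. Of 626 annotated intervals in runs, 192 (30.7%, 27.2 to 34.4%) were centred within 5 kb of a listed start, against 24.2% in pairs, 22.5% of single intervals, 22.9% outside runs and 23.6% of all. On a CpG island lay 86 (13.7%, 11.3 to 16.7%) of those in runs, against 9.38% in pairs, 7.54% of single intervals, 7.94% outside runs and 8.45% of all. The median distance to the nearest listed start was 12106 bp in runs and 25304 bp outside. Neighbouring intervals share their gene, so these shares rest on fewer loci than intervals, and the differences were not tested. Of the 250 runs, 142 were listed for 1 gene, 52 for 2 or more and 56 for none. A CpG island was met by 52 runs, and 61.5% of these (48 to 73.5%) held a shared interval. The share was 73.2% (65.4 to 79.8%) of 142 runs with a gene and no listed island. It was 83.9% (72.2 to 91.3%) of the 56 runs with no listed gene. Islands are known for annotated intervals alone, so in this split of runs all other intervals counted as off an island. By interval, 17.4% of annotated run intervals on an island were shared, against 32% of those off an island. These shares were 15.7% and 33.1% in pairs, and 11.5% and 29.3% among single intervals. The lower share on islands was thus not particular to runs. Annotated intervals of the runs that met a CpG island had a lower median peak value, 27, than those of the runs with a gene and no island, 36.

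Of the runs with no listed gene, 5 had the most intervals, 5 each. At chr19:32338201-32356595 3 of the 5 were shared with epithelium, at chr2:126803033-126822799 2 were, and at chr5:43485528-43503405 1 was. The other runs, which tie with these and were added after their values were seen, had 1 of 5 shared at chr5:115830099-115844859 and 2 of 5 at chr6:39724931-39737334. These intervals have no peak value in the deposited table.

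The runs were then read against 10 lists of 203 genes, which cover tooth and bone genes, signalling pathways, cell junctions and matrix, and also neural and immediate early genes. Of these, 130 (64%) had a mesenchyme interval and 30 (14.8%) had a run. Over 21896 protein-coding genes these shares were 21.1% and 1.11%. Among genes with an interval, 23.1% of the list genes and 5.26% of all protein-coding genes had a run. The lists were chosen with earlier results of these data known, and gene length was not matched, so the contrast is no independent evidence.

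**Figure D5:**
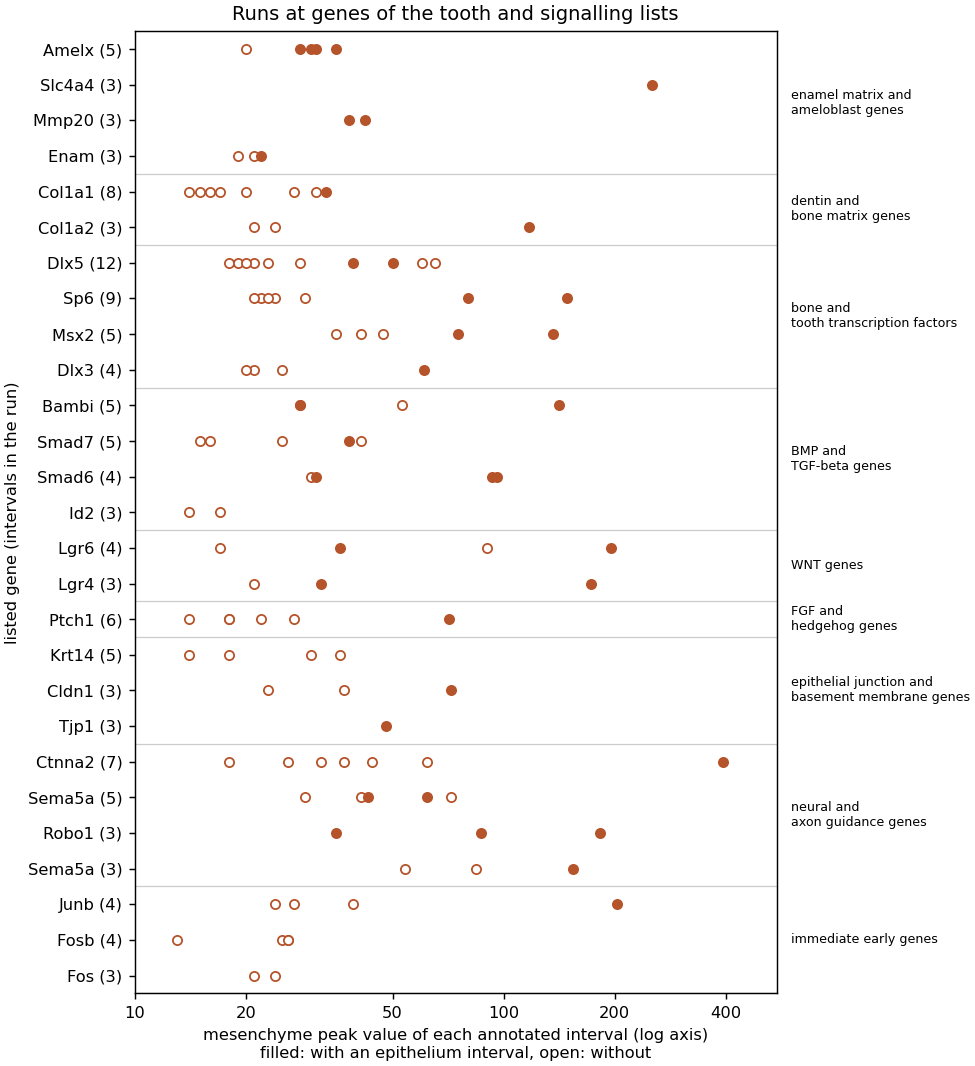
Mesenchyme peak value of each annotated interval (horizontal log axis) in the runs at list genes, with at most 4 runs per list, one row per run and the number of intervals in parentheses. Filled points had an epithelium interval and open points had none, and the Lgr6 row reaches from an open point at 17 to a filled point at 195.

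Of 16 enamel matrix and ameloblast genes, 12 had an interval and 4 had a run. Amelx, which encodes amelogenin and lies inside Arhgap6, had 5 intervals (chrX:165616256-165630882) with peak values of 31, 30, 28, 35 and 20. The first 4 covered the gene body with gaps of at most 307 bp, and all 4 overlapped epithelium intervals, with highest epithelium peak values of 28, 17, 17 and 20. The fifth interval, upstream of the start, had none. Mmp20, the enamel matrix protease, had 3 intervals (chr9:7617836-7638247). The interval over its start had 42 in mesenchyme and 29 in epithelium, and the one 9401 bp into the gene had 38 in mesenchyme and 45 in epithelium, higher in epithelium. Enam, which encodes enamelin, had 19, 21 and 22 in and past the gene (chr5:88931080-88936479), the last shared with 21 in epithelium. At Slc4a4, a bicarbonate cotransporter gene of pH control, all 3 intervals past the gene were shared (chr5:89677615-89688945), and the annotated one had 253 in mesenchyme and 77 in epithelium.

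Of 12 dentin and bone matrix genes, 8 had an interval, and the type I collagen genes Col1a1 and Col1a2 were the members with a run. Of 30 transcription factors of bone and tooth, 18 had an interval and 8 had a run (Sp6, Msx2, Dlx3, Dlx5, Satb1, Sox21, Trp63 and Meis1), 10 runs in all. Dlx3, mutated in a human tooth and hair disorder, had 4 intervals (chr11:94981128-94991113) with peak values of 21, 20, 25 and 61, the highest being the shared interval 18247 bp from its start, which had 23 in epithelium. Trp63, a master regulator of stratified epithelia, had 67, 31 and 24 in mesenchyme, and Meis1, a homeobox cofactor gene, had 72, 45 and 21. Neither Trp63 nor Meis1 had an epithelium interval in its run. Sox21, a repressor expressed in dental epithelium, had 20, 76 and 76, of which the interval 2444 bp upstream was shared. The run at Dlx1 and Dlx2 (6 intervals on chromosome 2) was left out by the rule, since its interval of peak value 20 touched an interval of the mesenchyme input.

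Of 29 BMP and TGF-beta genes, 20 had an interval and 4 had a run, namely Bambi, Smad6, Smad7 and Id2. Smad6, an inhibitory SMAD, had peak values of 96, 93, 31 and 30 around its start and inside the gene (chr9:63860764-63870317), and the first 3 were shared. Smad7, the related inhibitor, had 25, 41, 15, 16 and 38 (chr18:75523998-75534079), with the last shared, and a further run of 3 past the gene with no epithelium interval. Id2, a helix-loop-helix target of BMP signalling, had 17 and 14 in its annotated intervals and no epithelium interval. Of 27 WNT genes, 14 had an interval, and the R-spondin receptor genes Lgr4 and Lgr6 had a run. Lgr6 had 195, 17, 36 and 90 inside the gene (chr1:136908191-136923536), with 70 and 22 in epithelium under the values of 195 and 36. Lgr4 had 32, 173 and 21 (chr2:109807922-109821452), with 34 and 73 in epithelium under the values of 32 and 173. Of 21 FGF and hedgehog genes, 10 had an interval and Ptch1 had a run.

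Of 18 epithelial junction and basement membrane genes, 14 had an interval and 3 had a run. Krt14, the basal epithelial keratin, had 5 intervals (chr11:100067056-100083748) with annotated peak values of 36, 14, 18 and 30 from inside the gene to 7880 bp upstream, and none overlapped an epithelium interval. Cldn1, a tight junction gene, had 23, 72 and 37, the value of 72 shared with 20 in epithelium. Tjp1, which encodes the tight junction scaffold ZO-1, had 3 of 3 intervals shared, with 48 in mesenchyme and 47 in epithelium at the annotated one. Of 19 mesenchymal matrix and adhesion genes, 12 had an interval and 0 had a run. Of 21 neural and axon guidance genes, 15 had an interval and 3 had a run. Robo1, a guidance receptor, had 35, 87 and 183 in mesenchyme and 23, 32 and 41 in epithelium (chr16:72693144-72698978), so that both tissues had the same order.

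Of 10 immediate early genes, 7 had an interval and 3 had a run. Fos had 21 over its start and 24 downstream (chr12:86814147-86829726), and a run from Trsp over Fosb had 26, 25, 13 and 26 (chr7:19885938-19912936). Neither of these runs had an epithelium interval. The Junb run (chr8:87494236-87503020) had 203, 27, 24 and 39, and the shared interval of 203, with 58 in epithelium, lay inside Prdx2, a peroxiredoxin gene, 7991 bp from the Junb start.

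Besides Nudt4, the runs with no epithelium interval that had the most intervals, with ties ordered by summed peak value, were at Krt14, Irf2bp2 (annotated values of 35, 18 and 30), Cdkn1a and the purinergic receptor genes P2ry13 and P2ry12 (28, 79, 26 and 53). At Cdkn1a, which encodes the cell cycle inhibitor p21, 5 intervals lay upstream (chr17:29209524-29221875), of which the annotated one was 9184 bp from the start with a peak value of 37.

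A run of 4 intervals around the microRNA genes Mir181a-1 and Mir181b-1 was singled out after its values were seen (chr1:139858013-139872953). Peak values were 33, 23, 99 and 63, and the interval of 99, located 7345 bp past the Mir181b-1 start, was shared with epithelium. A run at Mir205, an epithelial microRNA gene, had values of 20 and 22 upstream of the gene and a further interval, without a peak value, that was shared. The mature 5p sequences (RefSeq, GRCm38.p6) are shown with the seed, bases 2 to 8, in capitals.
miR-181a-5p (chromosome 1): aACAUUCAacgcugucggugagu
miR-181b-5p (chromosome 1): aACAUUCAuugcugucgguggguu
miR-205-5p (chromosome 1): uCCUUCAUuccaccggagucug
Both miR-181 sequences have the same seed, so this run lies at a pair of microRNAs of 1 seed family, and miR-205-5p has another.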

How the data were processed

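The submitters' processing notes name the peak caller MACS 1.3.7.1 and the mouse build mm9. The aligner, thresholds and any scaling between libraries are not given in the labels and tables used here. The deposited interval lists gave start and end per library, with nothing pooled. For intervals in a gene or within 10 kb of one, the authors' tables gave a coverage signal (the peak value, fragment density in the highest bin), CpG islands and the distance from the peak centre to each listed gene start. Depth is unknown, since no read totals were given, so the precision of single values is unknown.

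Mesenchyme Sp6 intervals were sorted and joined where at most 10000 bp lay between neighbours, runs of 3 or more were kept, and runs touching an input interval were dropped. Overlap with epithelium meant 1 bp or more. Coordinates are 1-based on mm9. With 1 library per group no test was made, and shares carry Wilson 95% intervals. The code was tested on simulated data. Python 3.11.15, pandas 2.3.3, numpy 2.4.6, scipy 1.17.1 and matplotlib 3.10.9 were used. The runs and gene lists were chosen with earlier results of these data known. Runs were named by a rule: the 10 with the most intervals, the 10 with the highest peak value, the 5 with the most epithelium intervals, the 5 with no epithelium interval and the 3 with no listed gene and the most intervals, and those at list genes. Alternatives varied the gap, the run size, the overlap, the window around starts and the peak value limit.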

Additional observations from a re-analysis of the deposited data

How the results depend on the processing

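Of 68 alternative values, 39 stayed within their limits (counts within 1.5 times, shares within their 95% interval) and 29 moved. A gap of at most 5000 bp gave 117 runs with 405 intervals, a median span of 7.01 kb and 34.5% of annotated intervals within 5 kb of a start. A gap of at most 20000 bp gave 454 runs, 1642 intervals, 20.6 kb, 25.2% near a start and 11.1% on a CpG island. Runs of at least 2 intervals numbered 1246 with 2847 intervals, a median span of 6.06 kb, 57.6% of runs shared with epithelium, 26.2% of intervals near a start and 10.8% on a CpG island. Runs of at least 4 numbered 64 with 297 intervals, 85.9% of runs shared, 37.2% near a start and 19.3% on a CpG island. Use of the higher-peak part (above the median) of annotated mesenchyme intervals alone left 31 runs with 100 intervals, 49% of intervals and 87.1% of runs shared. For the 855 intervals and 250 runs of the main rule, the epithelium list was also cut to the higher-peak part (above the median) of its annotated intervals. The shares were then 12.5% of intervals and 35.2% of runs. This cut leaves out every epithelium interval with no listed gene. With an epithelium interval allowed within 1000 bp the interval share of the main rule was 37.4%. Windows of 1 kb and 10 kb around a start held 12% and 47%. The causes of these changes were not tested. No paired analysis was possible because each group had 1 library. Unknown depth, and peak values for annotated intervals alone, limit the values.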

Other observations

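Histone genes formed a group of runs that was noticed after the values were seen. There were 5 such runs, 4 on chromosome 13 and 1 on chromosome 3, with 15 intervals that listed 24 histone genes, which encode the proteins that package DNA. Their peak values lay between 17 and 90 with a median of 28, and 11 of 14 annotated intervals lay on a CpG island, against 8.45% of all annotated mesenchyme intervals. Of the 15 intervals, 3, in 2 runs, overlapped an epithelium interval, against 29.2% of all mesenchyme intervals. Of annotated run intervals on a CpG island 17.4% did, and with so few intervals the count is not read as a trait of histone runs. Histone genes of the same class resemble each other in sequence, so reads could be split between them, and the part of this in the values was not tested. The share of mesenchyme intervals that lay in runs ranged from 4.08% on chromosome X to 14.8% on chromosome 18, where 18 runs held 63 of 426 intervals.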
